A study of Homo sapiens with 15 samples.

Results

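The cytosines described here lie in the main body of the 5′ external transcribed spacer of the human 45S ribosomal DNA unit, from position 1500, counted from the transcription start, to the end of the spacer in the published layout of the unit. They were chosen by position and depth alone: a cytosine was kept where at least 2 libraries of each group held at least 10 reads with C or T. This gave 662 of the 2476 cytosines that pass the same depth rule in the whole unit, of which 300 were CpG, 146 CHG and 216 CHH (H is any base other than G). Bisulfite amplicons were sequenced from genomic DNA of a lymphoblastoid line (human B cells made to grow indefinitely by Epstein-Barr virus) kept in RPMI medium. The 4 groups were control (6 libraries, in 2 sets of 3) and cells at day 3, day 7 and day 14 after the onset of a 24 hour exposure to 5 µM hexavalent chromium (3 libraries each). All libraries come from 1 cell line, and the controls stand for the state before exposure. The design asks whether methylation differs from control at each of the 3 times. The labels number 3 replicates a group while their protocol speaks of 2 biological replicates, so p-values weigh differences against the spread of these libraries, which may be technical spread.

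The external transcribed spacer is the leading, non-coding end of the precursor RNA that RNA polymerase I makes from each ribosomal DNA repeat, and processing removes it before the 18S, 5.8S and 28S RNAs are assembled into ribosomes. A human genome carries many copies of the repeat, some transcribed and some silent, and CpG methylation of the repeat is a known mark of silent copies. Bisulfite converts cytosine without a methyl group to uracil, read as T, whereas methylated cytosine still reads as C, so the share of C reads at a CpG gives its methylation averaged over all copies amplified. Cytosines in CHG and CHH contexts are rarely methylated in differentiated human cells, and the share of C reads left at them is used as a measure of incomplete conversion in the same stretch.

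The 300 CpG sites ran from 1561 to 3439, with a median spacing of 5 bp and a widest gap of 81 bp between 3150 and 3231. Of them, 245 held at least 10 reads in all 15 libraries and were tested. The other 55 are described separately below. Reads at a tested site ranged from 10 to 529886, and the median site of a library held between 1099 and 9435 reads. The total of C and T reads over the whole unit ran from 28716783 to 95852393 per library and was lowest in day 7 replicate 3.

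Day 7 replicate 3 stood apart from the other two day 7 libraries from 1847 to 2383. Over 2080 to 2162 its methylation was 56.0%, inside the control range of 53.5% to 62.5%, while day 7 replicates 1 and 2 were at 8.31% and 7.29%. Over 2268 to 2383 it was at 66.3%, again within the control range of 60.3% to 67.9%, with the other two at 18.2% and 17.7%. From 2565 onward the same library was as low as its companions or lower, for example 10.9% over 2713 to 2781 against 22.5% and 17.5%. Its unconverted share over 2080 to 2162 was 0.940%, against 3.67% and 2.01%.

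Averaged over the 245 tested sites, spacer methylation was 47.2% ± 3.01 (SD, n = 6) in the controls, from 43.7% to 51.6%. The day 3 libraries stood at 51.1%, 47.3% and 47.8%, within the control range. The day 7 libraries stood at 29.2%, 26.2% and 33.6%, and the day 14 libraries at 28.4%, 32.1% and 34.8%. All 6 libraries of the later days were below every control, and the day 7 and day 14 values overlapped each other. The group means were 48.7% ± 2.08 at day 3, 29.7% ± 3.71 at day 7 and 31.7% ± 3.21 at day 14 (SD, n = 3 each). Summing reads over sites, which weights the deepest amplicons, gave 51.3% ± 5.39 in controls, 43.2% ± 9.25 at day 7 and 46.2% ± 7.75 at day 14, and these groups overlapped. The deepest stretch, 1847 to 2074, is described below.

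The conversion control moved with the same days. Reads summed over non-CpG cytosines were unconverted at 1.25% ± 0.409 (SD, n = 6) in controls and 1.37% ± 0.403 at day 3. At day 7 the share was 15.5%, 14.3% and 10.8%, and at day 14 it was 9.27%, 10.5% and 12.4%, all above the highest control value of 1.82%. An unconverted cytosine reads as C at a CpG as well, and so counts as methylated there. With the local unconverted share (summed over non-CpG cytosines within 100 bp in the same library) taken out, the spacer averaged 45.9% ± 2.92 in controls, 47.4% at day 3, 23.1% ± 6.20 at day 7 and 27.0% ± 3.57 at day 14. Part of the later libraries' high values in single stretches cannot be told apart from this unconverted background. The local share sums reads, so a deeper stretch nearby can outweigh a shallower one. Over 1761 to 1843 at day 7 the stretch's own share was 21.6%, yet site 1766 was given 5.99%. Over 2184 to 2230 at day 7 the stretch's own share was 26.1%, yet removal only moved methylation from 58.4% to 57.2%. Values, calls and filters that use the local share can therefore be corrected too little in such stretches.

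**Figure D1:**
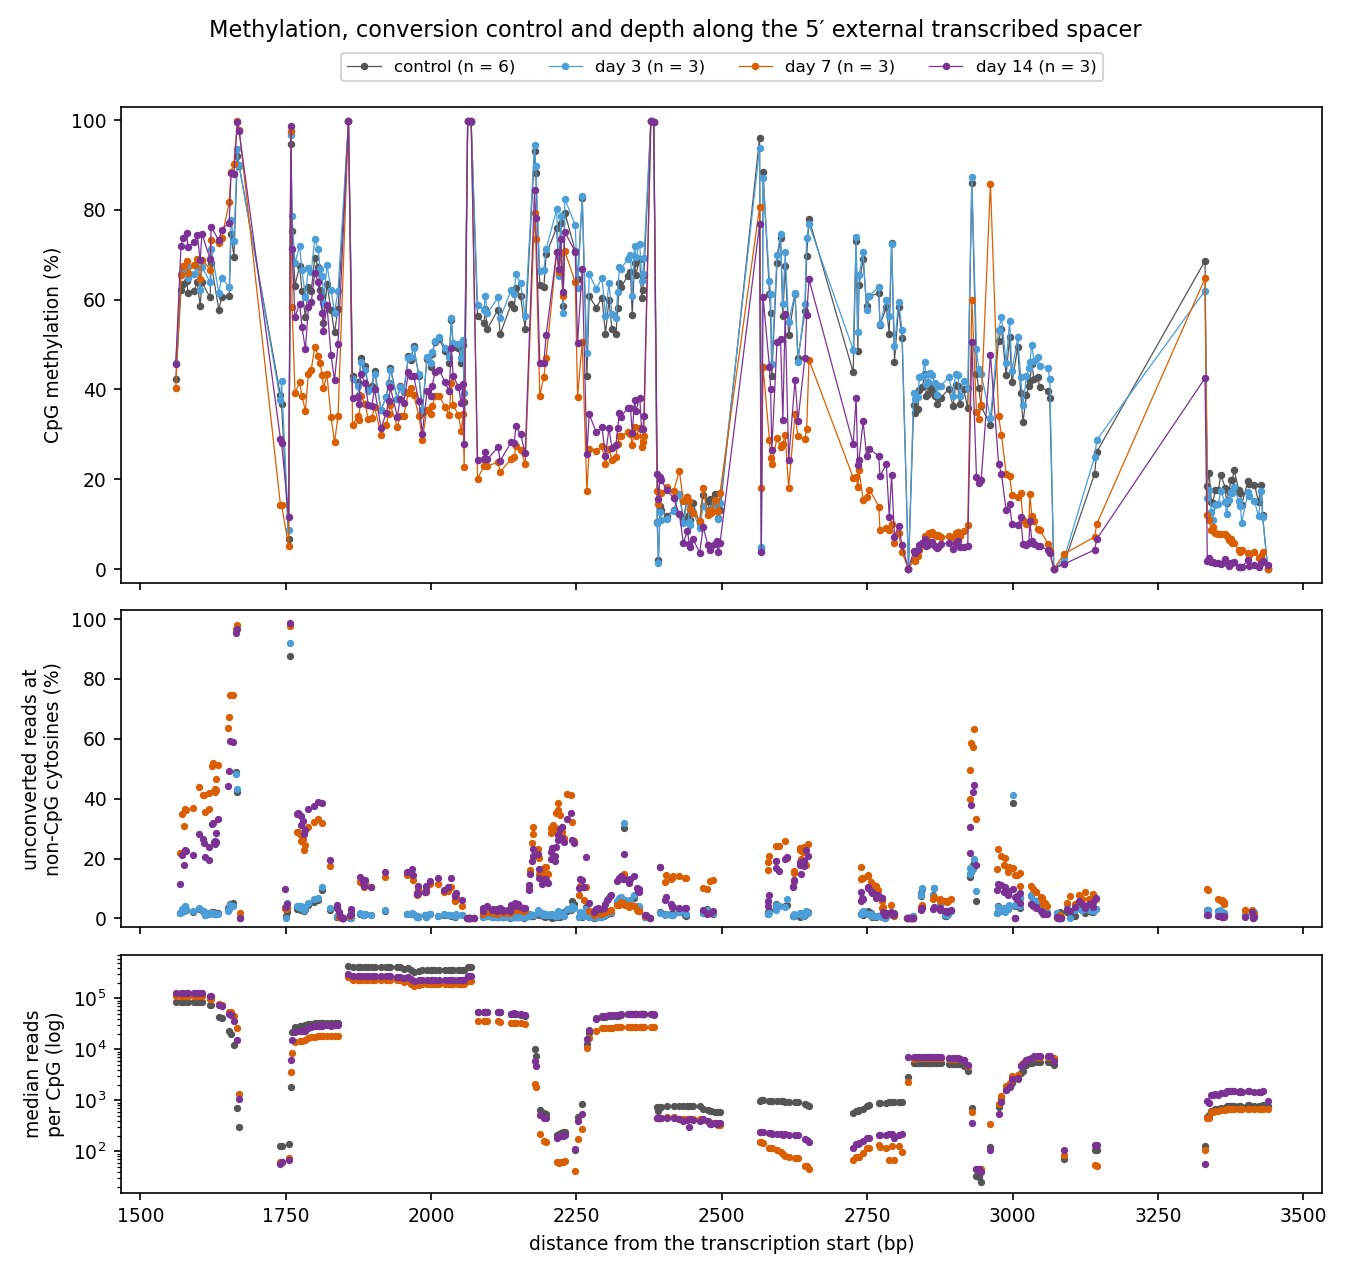
Mean CpG methylation at 245 tested sites (top, %), unconverted reads at 306 non-CpG cytosines (middle, %) and median reads per CpG (bottom, log scale; controls, day 7 and day 14) against distance from the transcription start in bp, by group. Control and day 3 profiles run together, day 7 and day 14 lie below them over most of the spacer after 2080, and both later days lie above them at the 5′ end, where the non-CpG values are also high.

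At day 7, 172 of the 245 tested CpG sites differed from control by edgeR's quasi-likelihood test (Benjamini-Hochberg adjusted p below 0.05 over all 851 tested sites of the unit). Of these, 158 fell and 14 rose. Over the whole unit 64.2% of the tested sites were called, 41.8% lower and 22.3% higher, so the share called in the spacer, 70.2%, was near that of the unit, while its split was 64.5% lower and 5.71% higher. At 100 of the sites all 3 day 7 libraries lay below all 6 controls, which is 40.8% of the tested sites against 35.1% over the unit. Of the 158 sites that fell, 58 had libraries that overlapped the controls. Replicate 3 was not below every control at 45 of these, replicate 1 at 15 and replicate 2 at 2, and a site can count for more than 1 replicate. Without replicate 3 the count was 199, with 182 lower, and without replicate 2 it was 135.

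At day 14, 168 of the 245 sites differed from control in edgeR, 145 lower and 23 higher. The unit as a whole had 71.0% called, 46.1% lower and 24.9% higher. All 3 day 14 libraries lay below every control at 137 sites (55.9%, against 39.6% over the unit) and above every control at 22 (8.98%, against 22.0%). Both later days were compared with the same 6 controls. Side by side, 128 sites were lower on both days, 13 higher on both, 0 called in opposite directions and 46 called on neither. With the local unconverted share removed, 211 sites were called at day 7 (11 higher) and 172 at day 14 (13 higher). Neither these counts nor those of both days are set against the whole unit, so they do not show what is particular to the spacer.

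At day 3 no site of the spacer passed in edgeR, where the unit also had 0.0% called. There were 0 member sites at an unadjusted edgeR p under 0.05, against 31 of the 851 sites of the unit. Limma and a quasi-binomial model called 0 sites as well. The edgeR fit used 1 spread over all groups, the widely spread day 7 libraries included, so small differences at day 3 may be missed. A fit of day 3 and control alone also called 0. The median difference from control was 2.02 points, and the differences ranged from -6.63 to 7.23 points. All 3 day 3 libraries lay above every control at 3 sites (1.22%, against 4.58% over the unit) and below every control at 0 (against 0.118%). The sites with the lowest p were 1759 (96.7% against 94.6% in controls), 3394 (10.3% against 14.4%) and 3071 (under 1% in every library), each with an edgeR adjusted p of 0.945.

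Depth divided the spacer into blocks. A new stretch was begun where the control median depth changed more than 2-fold between neighbouring cytosines or where a gap passed 50 bp, and the 12 stretches with at least 8 tested sites are described from 5′ to 3′. They hold 219 of the 245 tested sites. Their borders use depth and not methylation, and their means carry no test. At day 7, 6 stretches lay wholly below the controls and 1 wholly above, and at day 14 the numbers were 8 and 1. At day 3 all 12 overlapped the controls.

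**Figure D2:**
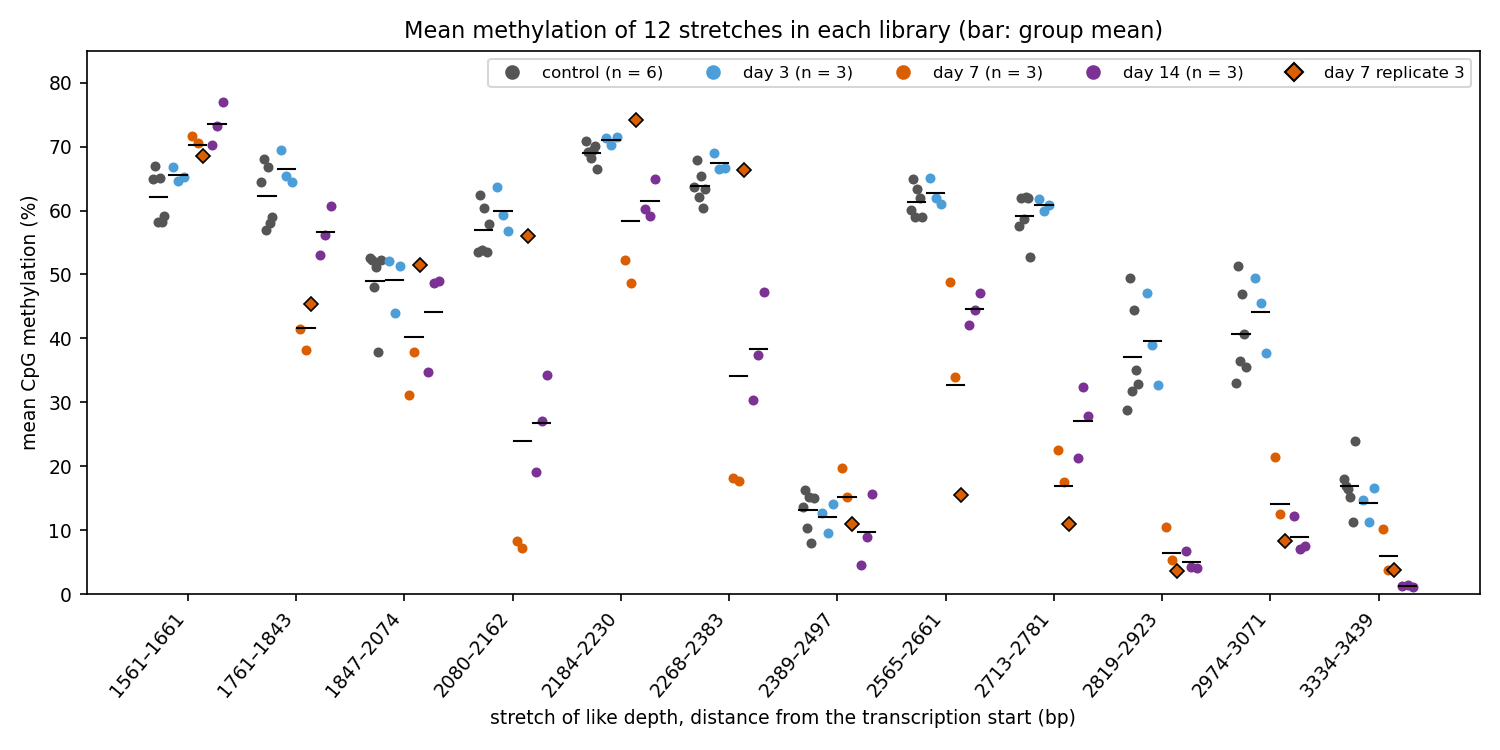
Mean CpG methylation (%) of the 12 stretches in each library, with horizontal bars for group means and a diamond for day 7 replicate 3. The diamond sits within or above the control range from 1847 to 2383, apart from day 7 replicates 1 and 2, and at the bottom of its group from 2565 to 3071.

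The 5′ end, 1561 to 1661 (16 tested sites, median control depth 85602 reads), was the only stretch that was higher on both later days. Controls ranged from 58.2% to 67.0%, day 3 libraries were at 66.8%, 64.6% and 65.3%, day 7 at 71.7%, 70.6% and 68.6% and day 14 at 70.3%, 73.2% and 77.0%. All later libraries lay above all controls. In edgeR 5 sites rose at day 7 and 15 at day 14, and none fell. The unconverted share here was 2.53% in controls, 45.4% at day 7 and 29.1% at day 14, the highest of the 12 stretches on both later days. With the local share removed the stretch read 61.2% ± 3.59 in controls, 47.8% ± 3.07 at day 7 and 63.8% ± 4.14 at day 14, so the day 7 difference changed sign, from 8.20 points to -13.5 points.

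The next stretch, 1761 to 1843 (16 sites), separated day 7 from day 14. Controls ranged from 57.0% to 68.1%. The day 7 libraries were at 41.5%, 38.1% and 45.4%, all below the controls, and all 16 sites fell. The day 14 libraries were at 53.1%, 56.2% and 60.7%, overlapping the controls, and 2 of the 16 sites were lower (0 without replicate 1 and 6 without replicate 3). Unconverted shares were 23.3%, 21.8% and 19.6% in the day 7 libraries and 26.7%, 23.9% and 27.6% in the day 14 libraries, against 3.25% in controls, so every day 14 library was above every day 7 library. Replicate 3 of day 7 did not stand apart here.

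The deepest stretch, 1847 to 2074 (36 sites, median control depth 390966 reads), overlapped the controls on both later days. Controls ranged from 37.8% to 52.5%, with control replicate 5 at the bottom and the others at 48.0% or more. Day 7 libraries were at 31.2%, 37.9% and 51.5% and day 14 libraries at 34.7%, 48.7% and 49.0%. At day 7, 9 sites fell, all between 2014 and 2057, and at day 14 none did. This count rests on single libraries: it was 33 without day 7 replicate 3, 0 without replicate 1 and 1 without replicate 2. The unconverted share was 0.779% in controls, 7.03% at day 7 and 7.84% at day 14.

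The stretch 2080 to 2162 (11 sites) had the lowest unconverted shares of the later days over the 5′ and middle parts, 2.20% at day 7 and 3.49% at day 14, against 0.474% in controls. Day 14 libraries stood at 19.1%, 27.0% and 34.3%, all below the control range of 53.5% to 62.5%, and all 11 sites fell. All 11 also fell at day 7, although replicate 3 lay within the control range. The day 14 calls rested on replicate 1: without it, 0 of the 11 passed in a fit that estimates the spread over all groups, day 7 included, although the remaining libraries were still below every control.

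The short stretch 2184 to 2230 (8 sites, median control depth 240 reads) was well methylated in controls, from 66.6% to 70.9%. Day 7 libraries were at 52.3%, 48.7% and 74.1%, and day 14 libraries at 60.2%, 59.2% and 65.0%. Day 7 replicates 1 and 2 and all day 14 libraries were below the controls, and 3 sites were lower on each day (6 at day 7 without replicate 3). The unconverted share was 0.876% in controls and 20.6% at day 14. In the day 7 libraries it was 38.0%, 33.0% and 7.34%, lowest in replicate 3, whose methylation was the highest.

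Over 2268 to 2383 (22 sites), day 14 libraries were at 30.3%, 37.3% and 47.3%, all below the controls (60.3% to 67.9%), and 20 sites fell on each later day. The unconverted share was 3.08% at day 7, close to the 3.43% of the controls, and 7.83% at day 14. The calls depended on which library was left out: at day 7 they were 11 without replicate 1, 3 without replicate 2 and 20 without replicate 3, and at day 14 they were 0 without replicate 1 and 7 without replicate 2.

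A low stretch followed at 2389 to 2497 (21 sites), where the controls averaged 13.1%. Libraries ranged from 8.05% to 16.4% in controls, from 10.9% to 19.7% at day 7 and from 4.49% to 15.6% at day 14, and the groups overlapped. In edgeR 14 sites were lower at day 14 and none at day 7, and without day 14 replicate 1 there were 7 lower and 5 higher at day 14. The unconverted share was 13.2% at day 7, about as large as the CpG value itself, and the methylation left after removal was 9.52% ± 2.38 against 10.5% ± 3.28 in controls.

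The stretch 2565 to 2661 (16 sites) was both shallower and less methylated on the later days. Median reads per site were 954 in controls, 93.5 at day 7 and 215 at day 14. Controls ranged from 59.0% to 64.9%, day 7 libraries were at 48.8%, 33.9% and 15.5%, and day 14 libraries at 42.1%, 44.4% and 47.1%. All later libraries were below all controls, with 14 sites lower at day 7 and 10 at day 14. The unconverted share was 2.06% in controls and 15.7% at day 14. The day 7 libraries had unconverted shares of 37.6%, 23.4% and 0.714%, in the same order as their methylation. With the local share removed these 3 libraries came together at 13.9% ± 0.527, against 60.4% ± 2.21 in controls. The day 14 libraries did not follow their shares, which were 25.9%, 3.43% and 17.9%. Removal spread them from 44.5% ± 2.51 to 32.9% ± 8.20. Day 7 replicate 3 rests on a median of 20.5 reads per site here.

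At 2713 to 2781 (9 sites) the difference from control was -42.2 points at day 7 and -32.1 points at day 14 in the deposited counts, with an unconverted share of 0.984% in controls, 9.80% at day 7 and 6.68% at day 14. Controls ranged from 52.8% to 62.2%, day 7 libraries were at 22.5%, 17.5% and 10.9% and day 14 libraries at 21.2%, 32.4% and 27.8%. All 9 sites fell on each day. The site with the largest fall of the spacer, 2792, lies just past this stretch: it was between 65.8% and 77.9% in controls, at 9.45%, 10.03% and 10.7% on day 7, and at 13.9%, 17.8% and 31.2% on day 14. Its log2 ratio of methylated to unmethylated reads fell by 4.61 ± 0.34 (SE) at day 7 (edgeR adjusted p = 2.29e-08) and fell by 3.35 ± 0.30 at day 14 (edgeR adjusted p = 1.24e-07). Day 7 replicate 3 held 28 reads at this site, so its value of 10.7% has a 95% Wilson interval of 3.71% to 27.2%. Intervals cover counting error only, since PCR copies, which carry no molecular identifier here, are not independent molecules.

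The stretches at the 3′ side were low on both later days. Over 2819 to 2923 (23 sites) controls ranged from 28.8% to 49.5%, day 7 libraries were at 10.6%, 5.31% and 3.56% and day 14 libraries at 6.78%, 4.23% and 4.09%. The unconverted share here, 3.67% and 1.87% on the later days, was near the 2.99% of the controls. A total of 22 of its 23 sites fell on each day, the exception being 2821, which was unmethylated throughout. Over 2974 to 3071 (18 sites) controls ranged from 33.1% to 51.3%, with day 7 at 21.5%, 12.5% and 8.29% and day 14 at 12.2%, 7.09% and 7.58%, and 17 sites fell on each day. The unconverted share there was 4.95% in controls, 11.98% at day 7 and 5.76% at day 14, and with the local share removed day 7 stood at 5.78% ± 2.04 against 38.2% ± 6.85 in controls. Median control depth was 5415 and 4934 reads per site in these stretches, and no later library overlapped a control.

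The last stretch, 3334 to 3439 (23 sites), was already low, from 11.3% to 23.9% in controls. Day 7 libraries were at 10.2%, 3.77% and 3.82%, and day 14 libraries at 1.22%, 1.49% and 1.17%. The control, day 7 and day 14 libraries did not overlap each other, and 22 sites fell on each day against control. Day 14 was also lower than day 7 at 19 sites. The unconverted share was 4.90% at day 7 and 0.759% at day 14, and with it removed the means were 1.38% ± 1.12 and 0.496% ± 0.205, which overlap within their SDs.

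**Figure D3:**
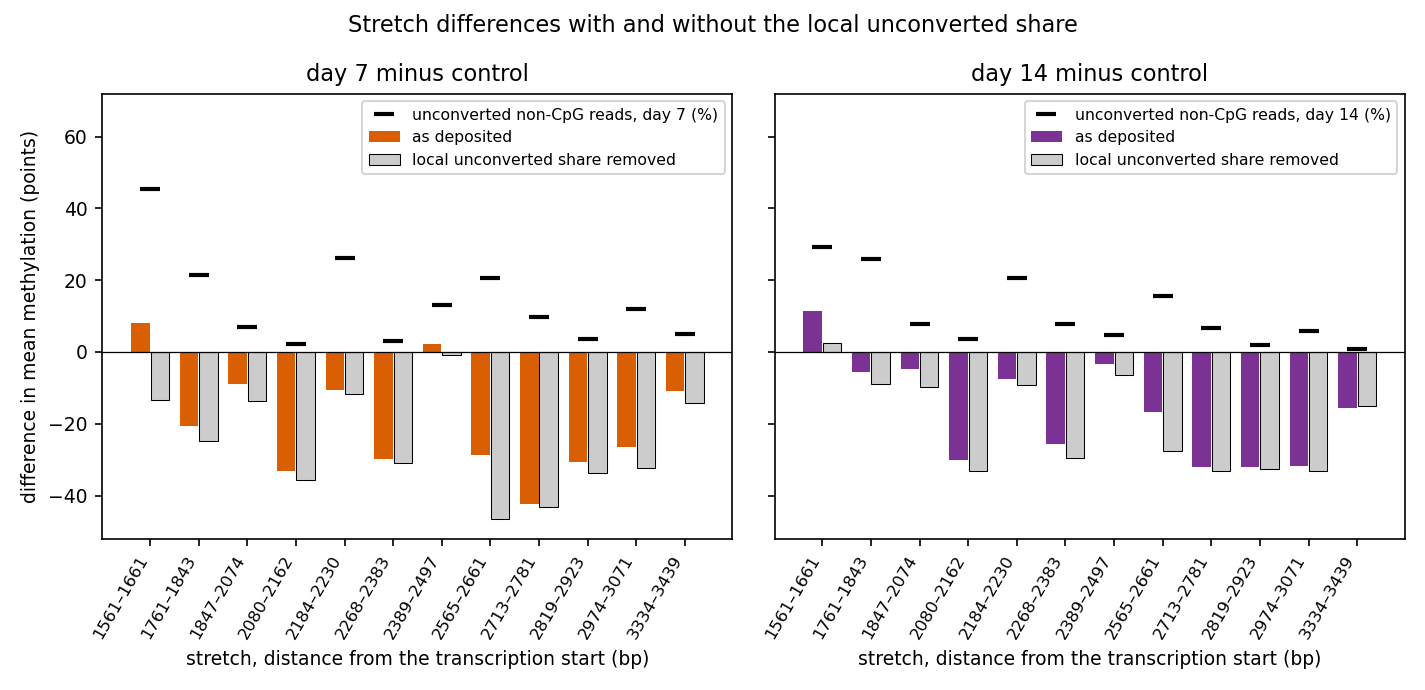
Difference from control in mean CpG methylation (percentage points) of the 12 stretches at day 7 and day 14, from the deposited counts (coloured bars) and with the local unconverted share removed (grey bars), with black marks for the unconverted share (%). The grey bar turns negative at 1561 to 1661 on day 7, the only stretch with a day 7 rise larger than the control spread, and is longer than the coloured bar at 2565 to 2661.

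The spacer was also tested in fixed windows of 200 bp. Of the 43 windows of the unit, 9 lie in the spacer, and all 9 passed at day 7 in limma on the mean log2 ratio, 8 lower and 1 higher, where 62.8% of the unit's windows passed (39.5% lower and 23.3% higher). At day 14, 7 passed (unit 69.8%), 6 lower (unit 39.5%) and 1 higher (unit 30.2%), and at day 3 none (unit 0.0%). The window that rose was 1500 to 1699, by 0.94 ± 0.19 at day 7 and 1.09 ± 0.19 at day 14 (SE; limma adjusted p = 0.00038 and 0.000109). It averaged 65.3% ± 3.80 in controls, 73.5% ± 1.46 at day 7 and 76.3% ± 2.99 at day 14. With the local share removed its log2 difference was -0.95 at day 7 (limma adjusted p = 0.00176) and 0.48 at day 14 (limma adjusted p = 0.0737). The largest falls in log2 ratio were in 2700 to 2899 at day 7, which fell by 3.31 ± 0.25 (46.4% ± 5.88 in controls, 9.25% ± 2.903 at day 7, limma adjusted p = 9.25e-09), and in 3300 to 3499 at day 14, which fell by 3.81 ± 0.31 (19.1% ± 3.92 in controls, 3.01% ± 0.676 at day 14, limma adjusted p = 2.98e-08). Windows 1700 to 1899 and 1900 to 2099 did not pass at day 14 (limma adjusted p = 0.488 and 0.167). With the local share removed, 1700 to 1899 did pass, with a log2 difference of -0.83 (limma adjusted p = 0.00229). With reads summed within windows, 7 of the 9 passed at day 7, and 1700 to 1899 and 1900 to 2099 did not (limma adjusted p = 0.107 and 0.0944). At day 7, windows 1900 to 2099 and 2300 to 2499 each lost their call without control replicate 1, 2, 4 or 6 and without day 7 replicate 1 or 2. At day 14, windows 2100 to 2299, 2300 to 2499 and 2500 to 2699 lost theirs without replicate 1, which left 4 called windows, and the first and last of these also without replicate 2.

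Falls and rises formed runs of neighbouring calls. At day 7 the falls ran from 1761 to 1840 (16 of 16 tested sites called), 2014 to 2057 (9 of 9), 2080 to 2366 (38 of 44), 2571 to 2930 (51 of 53) and 2976 to 3430 (41 of 44). The rises formed 1 run, from 1635 to 1670 (7 of 7). At day 14 the falls ran from 2080 to 2366 (37 of 44), 2434 to 2942 (64 of 71) and 2976 to 3430 (42 of 44), and the rises from 1570 to 1759 (18 of 21) and from 1858 to 2069 (3 of 36), the last holding only sites near 100% in every library, described below. The median difference in the first of these runs of rises was 10.4 points, with a median local unconverted share of 27.1%.

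Rises were few, and the run from 1635 to 1670 held 7 of the 14 at day 7. Within it, site 1661 was between 66.7% and 73.4% in controls, 91.4%, 91.1% and 88.3% in the day 7 libraries, and 86.3%, 87.7% and 90.2% in the day 14 libraries. The rise was 20.7 points at day 7 and 18.5 points at day 14 (adjusted p = 3.75e-07 and 2.25e-06 in edgeR), with a local unconverted share of 43.6% and 27.2%. Closer to site 1661, cytosines 1655 and 1660 (CHG), chosen after their values were seen, were less converted. They were unconverted at 74.5% and 74.6% at day 7 and 59.25% and 58.8% at day 14, against 4.96% and 5.05% in controls. At 1665 (CHH) the share was 96.6% and 95.2%, against 49.0% in controls. Sites 1653, 1667 and 1670 beside site 1661 also rose on both days. The largest rise was at 2962, a site between 24.6% and 44.1% in controls, at 85.3%, 72.1% and 100% at day 7 and 54.1%, 40.0% and 49.2% at day 14. It rose by 53.8 points at day 7 (edgeR adjusted p = 9.46e-06) and 15.7 points at day 14 (edgeR adjusted p = 0.0434). The 100% of replicate 3 is 15 of 15 reads (95% Wilson interval from 79.6%), and the rise at day 14 lost its call in limma (adjusted p = 0.15). That rise also lost its call with reads thinned to the lowest depth and with day 3 libraries in place of controls. The same held with either control set alone and with 10 reads asked in only 2 libraries of each group. The local unconverted share of site 2962 was 4.37% in controls, 9.30% at day 7 and 4.06% at day 14. Non-CpG cytosines from 2926 to 2933, chosen after their values were seen, were unconverted at 39.8% to 63.1% at day 7, against 13.8% to 18.6% in controls.

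A further pair of rises, at 2391 and 2568, began from near 0. Site 2391 was at 1.92% ± 1.44 (SD, n = 6) in controls, at 18.5%, 16.1% and 9.21% at day 7 and 4.54%, 14.6% and 27.7% at day 14. It rose on both days (edgeR adjusted p = 0.000949 and 0.00154). Its local unconverted share was 4.31% in controls, 3.56% at day 7 and 9.06% at day 14. The stretch 2389 to 2497, which holds it, was unconverted at 18.35%, 12.71% and 8.54% in the day 7 libraries. In the day 14 libraries that stretch was unconverted at 2.22%, 4.22% and 7.85%. How much of the rise at 2391 is unconverted background was not tested. Site 2568 averaged 4.72% ± 2.23 in controls and was at 33.1%, 8.33% and 13.0% in the day 7 libraries (edgeR adjusted p = 0.00462). Its local unconverted share at day 7 was 21.8%, its rise turned to a log2 difference of -2.08 with that share removed, and it lost its call without replicate 1 (adjusted p = 0.136).

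Between the later days, 54 of the 245 sites differed in edgeR, 23 higher and 31 lower at day 14 than at day 7, where the unit had 18.6% called (13.9% higher and 4.7% lower). The higher ones formed a run from 1741 to 1840 (18 of 20 sites). Site 1766 went from 38.5%, 36.0% and 43.2% to 52.9%, 55.3% and 60.1%, a rise of 16.9 points (edgeR adjusted p = 0.0149). Its local unconverted share was 5.99% at day 7 and 6.34% at day 14. The stretch 1761 to 1843 around it was unconverted at 21.6% and 26.0%. Non-CpG cytosines 1769, 1771 and 1773, chosen after their values were seen, stood at 28.6% to 28.9% and 34.9% to 35.3%. How much of this rise is unconverted background was not tested. The other rises ran from 2731 to 2792 (5 of 11), and site 2731 went from 25.0%, 19.6% and 16.7% to 35.0%, 43.9% and 35.5% (edgeR adjusted p = 0.0133). The lower ones ran from 2434 to 2568 (11 of 16) and from 2962 to 3423 (20 of 43). Among them, site 3381 was at 10.04%, 3.60% and 3.57% at day 7 and 1.40%, 2.15% and 1.29% at day 14 (edgeR adjusted p = 0.0119). Of the windows, 1700 to 1899 was higher by 0.77 ± 0.22 (limma adjusted p = 0.0195) and 3300 to 3499 lower by a log2 difference of -1.996 ± 0.355 (limma adjusted p = 0.000928), where 27.9% of the unit's windows passed, 20.9% higher and 6.98% lower. The count of sites depended on the libraries: it was 112 without day 7 replicate 3, 17 without day 7 replicate 1, 30 without day 14 replicate 2 and 33 without day 14 replicate 3. In a fit of these 2 groups alone 1 site passed, and window 1700 to 1899 missed the threshold without day 7 replicate 1 or 2 or day 14 replicate 2 or 3 (limma adjusted p from 0.0514 to 0.0824). With the local share removed the sites split into 65 higher and 15 lower, site 3381 turned to a log2 difference of 1.95 (edgeR adjusted p = 0.114), and window 3300 to 3499 did not pass (limma adjusted p = 0.383). Window 1700 to 1899 kept its call (log2 difference 0.74, limma adjusted p = 0.0224), although the local share can be too small there, as at site 1766. After removal 5 windows were called higher at day 14 and 0 lower.

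Sites of low and high coverage were compared by the lowest read count over the 15 libraries. The 91 sites with 10 to 99 reads averaged 36.0% ± 1.38 (SD, n = 6) in controls, 20.7% ± 5.46 at day 7 and 21.1% ± 1.88 at day 14. The 21 sites with at least 100 but under 1000 reads averaged 51.0% ± 3.55, 31.8% ± 3.02 and 30.0% ± 1.56. The 133 sites with 1000 or more averaged 54.2% ± 4.23, 35.5% ± 9.35 and 39.3% ± 4.71. Methylation was thus lower at the later days in each class, and the shallow sites were the least methylated in every group. At day 7 the falls were 54 of 91, 17 of 21 and 87 of 133, and the rises 3, 2 and 9. At day 14 the falls were 65 of 91, 16 of 21 and 64 of 133, and the rises 2, 2 and 19. Classes lie in different stretches, so depth and place in the spacer cannot be told apart.

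**Figure D4:**
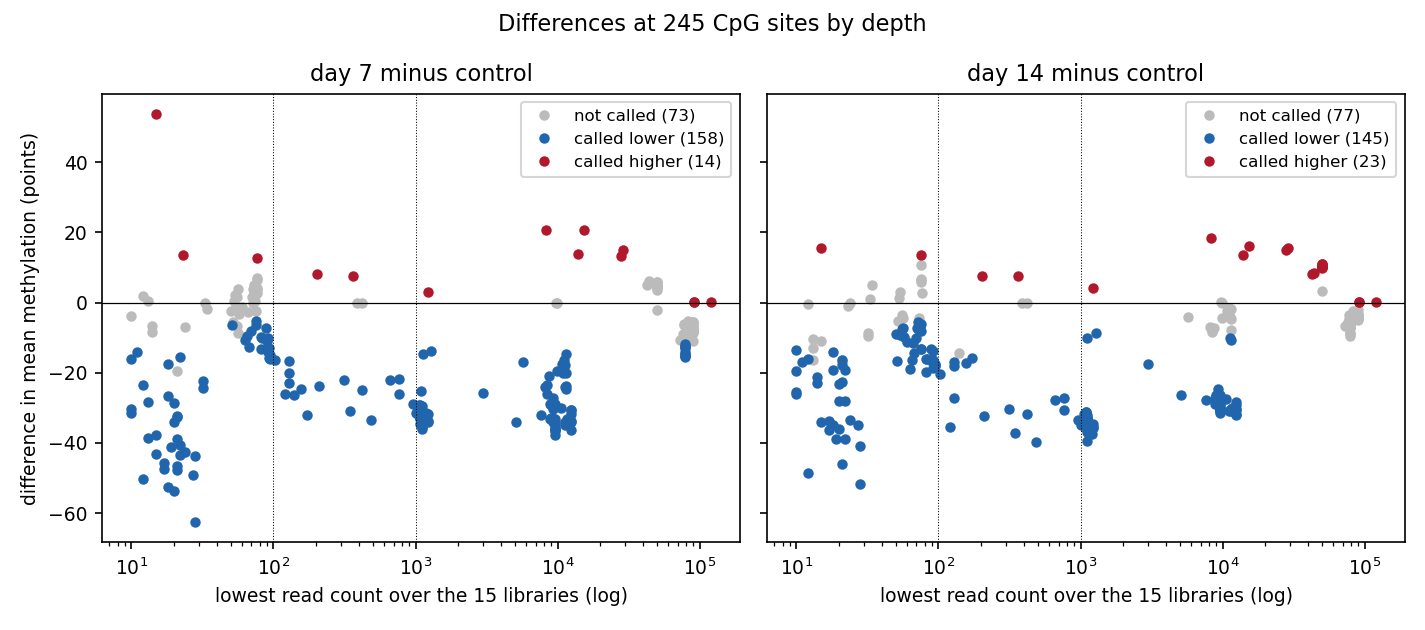
Difference from control in mean methylation (percentage points) at 245 CpG sites against the lowest read count over the 15 libraries (log scale; dotted lines at 100 and 1000 reads), at day 7 and day 14, coloured by the edgeR call. Falls appear at all depths, and the deepest sites, in the stretch from 1847 to 2074, lie closer to 0.

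Between days 14 and 7 the classes differed in direction. The shallow class held 30 of the 31 sites that were lower at day 14 and 7 of the 23 that were higher, and the deep class held the other 16 higher ones and 0 lower ones. The median local unconverted share moved from 5.71% to 4.67% in the shallow class and from 6.99% to 8.14% in the deep class between day 7 and day 14. The difference between classes was not tested.

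The 55 CpG members that lacked 10 reads in at least 1 library lay between 1738 and 3321. A fit over the 1022 CpG sites of the unit that pass the depth rule dropped libraries with fewer than 10 reads at a site. At day 7 it called 19 of the 55 lower and 2 higher, where the unit had 59.3% called, 38.2% lower and 21.1% higher. At day 14 it called 29 lower and 0 higher, where the unit had 65.2% called, 42.6% lower and 22.6% higher. At day 3 the same fit called 0 (unit 0.0%), and between the later days it called 9 lower (unit 5.09%) and 1 higher (unit 11.8%) at day 14. Their mean was 34.7% in controls, 30.3% at day 7 and 20.5% at day 14. Libraries held 10 reads at 269 to 300 of all 300 CpG members. These means therefore do not rest on the same sites in every library, and part of their difference may come from that. Over all 300 CpG members the same fit, with the same unit shares, called 177 lower and 16 higher at day 7 and 173 lower and 22 higher at day 14.

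A group of 8 sites stayed at an extreme in all libraries. Sites 1858, 2063, 2069, 2378 and 2383 were above 95% in all 15 libraries (99.3% to 99.9%), and 2821, 3071 and 3439 were below 5%. All 8 lie within 11 bp of an end of a depth stretch. Their CpG neighbours within 50 bp moved: around 2378 they averaged 44.7% in controls and 28.7% at day 7, and around 2821 they averaged 44.95% and 6.60%. The position of the primers is not given in the sources used here, and whether these sites lie in primers was not tested. Of the 8, 3 were called higher on both later days, with differences under 1 point on 90493 reads or more. Without them the rises were 11 at day 7 and 20 at day 14. At 2821, control replicate 6 had 0 of 9706 reads with C, which allows a share of up to 0.0309% (3 counts of the total).

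Unconverted reads at the non-CpG cytosines were spread unevenly along the spacer. Of the 306 with 10 reads in all libraries, 11 were over 10% unconverted in controls, 13 at day 3, 150 at day 7 and 129 at day 14. The highest in controls was 1758 (CHG), at 87.5% ± 6.22 (SD, n = 6) in controls and 97.7% ± 0.149 at day 7, directly before the CpG at 1759, itself at 94.6% in controls. The next was 1665 (CHH), at 49.0% ± 18.4 in controls, 96.6% at day 7 and 95.2% at day 14. Means lower than in controls were found at 35 of the 306 at day 7 and 50 at day 14, without a test. Chosen after their values were seen, 3001 (CHG) was at 38.6% ± 9.06 in controls, 16.8% at day 7 (28.0%, 13.7% and 8.74%) and 9.69% ± 4.72 at day 14, and 2331 (CHH) was at 30.2% ± 2.22, 14.8% ± 11.0 and 21.4% ± 6.44. At 2331 the day 7 libraries stood at 8.86%, 8.07% and 27.4%, so replicate 3 was near the controls there as at its CpG neighbours.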

How the data were processed

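Bisulfite PCR products of 15 genomic DNA libraries were read as paired ends. The tools listed in the submitters' processing notes, with no role or order, are BSMAP 2.90, methylKit, SAMtools 1.3.1 and Trim Galore, beside the builds hg19 and GRCh37. Positions in the files lie on the GenBank sequence of the human ribosomal DNA repeat (U13369.1) and not on a chromosome. The end of the 5′ external transcribed spacer was taken from the published layout of that sequence, which was not checked against the record.

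Per the file headers, each row gives a cytosine, its context, counts of reads with C and with T, and the fraction of C. The counts were used as deposited, and the fraction the authors deposited equals C over C plus T. At the 300 CpG members a median of 0.418% of reads were neither C nor T, and at 34 of them over 10% were (at most 28.9%). Such reads were left out.

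Methylated and unmethylated counts at the 851 CpG sites of the unit with 10 or more reads in all 15 libraries entered the quasi-likelihood test of edgeR 4.0.16 (R 4.3.3), with library effects, group terms for methylation and 1 estimate of the spread over all groups. Means over 200 bp windows with at least 3 tested sites, of log2((methylated + 0.5)/(unmethylated + 0.5)), were tested with limma 3.58.1, which covered 243 of the 245 spacer sites. Benjamini-Hochberg adjustment ran over all 851 sites or all 43 windows, with calls below 0.05. The log2 differences printed are of methylated against unmethylated reads. Both fits were tested on simulated data. A local unconverted share s was removed from a methylated fraction f as (f - s)/(1 - s). Where s is larger than f this falls below 0, a value no methylated fraction can take, and it was set to 0. At day 7 mean s was 21.8% at site 2568, where methylation was 18.2%. It was 5.77% at site 3381, where methylation was 5.74%. Log2 differences and calls after removal are therefore uncertain at such sites, as are means and SDs that include them. Figures were drawn with matplotlib 3.10.9.

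The members, the lists and the tests were chosen with earlier results of these data known. Named sites are, for each comparison and coverage class (under 100, under 1000, and 1000 or more reads in the lowest library), called sites with the largest rise and fall, at most 3 a direction and 2 a window, with all libraries of the group on 1 side of the mean they were compared with. With no call, the 3 lowest p-values chose the sites. The 2 non-CpG cytosines highest in controls were named too, and others are marked where they appear. Alternatives are given in the closing section. The protocol pools 12 libraries in a sequencing mix, and the sources used here do not tell which libraries went together, so mix and group cannot be told apart.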

Additional observations from a re-analysis of the deposited data

Results flagged for a closer look

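Among 46 sets of 6 control values, the spacer mean, stretches and named sites included, 5 had a library far from the other 5 by Dixon's gap test at the 95% level. Chance gives such a gap in about 1 of 20 sets. Control replicate 5 had 40.9% methylation over the summed reads of the spacer, where the next control was at 50.1% and the median at 53.6%. The same library was at 37.8% over 1847 to 2074, the deepest stretch, with the next at 48.0%. Control replicate 6 was high at 2 sites of the last stretch, at 29.1% at 3381 (next 22.5%) and 23.5% at 3394 (next 14.04%). Control replicate 3 was at 0.260% at 3071, which is 1 of 385 reads, with the next control at 0.0444%.

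Of the 9 spacer windows, 2 differed between day 14 and day 7 in limma. Window 1700 to 1899 was higher at day 14 by a log2 difference of 0.77 (adjusted p = 0.0195), at 51.6% ± 4.34 against 40.7% ± 4.24 (SD, n = 3 each). Window 3300 to 3499 was lower, by a log2 difference of -1.996 (adjusted p = 0.000928), at 3.01% ± 0.676 against 8.39% ± 3.84.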

How the results depend on the processing

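Taking out the local unconverted share reversed 6 values listed here: site 2568 at day 7 (log2 difference -2.08), sites 2497 (0.53) and 3381 (1.95) and window 2900 to 3099 (1.09) between days 14 and 7, window 1500 to 1699 at day 7 (-0.95) and the stretch 1561 to 1661 at day 7 (-13.5 points). Stretch means of overlapping groups changed order too. Over 2389 to 2497, day 7 against control went from 15.2% against 13.1% to 9.52% against 10.5%. Over 2819 to 2923, day 14 against day 7 went from 5.03% against 6.48% to 2.34% against 1.39%. Taking out the share moved the spacer difference to -22.8 points at day 7 and -18.9 at day 14, from -17.5 and -15.4, while summing reads gave -8.08 and -5.08. It left 5 windows called between days 14 and 7, all of them higher at day 14, in place of 2. In 2 alternatives added after seeing the data, sites were kept only with a local share under 5% in every library (14 sites) or under 10% (93 sites): calls were 11 and 80 at day 7 and 14 and 75 at day 14, and under 5% 4 between those days. No spacer site had a share under 2% in every library, so that limit gave no value. With 100 reads in all libraries (154 sites), calls were 102 at day 14 and 17 between days 14 and 7, with 0 windows. Between days 14 and 7, fitting only these 2 groups gave 1 call and thinning to the lowest depth 10, against 54, and summed reads or mean percent gave 1 window. Windows of 100 bp gave 15, 11 and 4 calls at day 7, at day 14 and between them (of 18), and windows of 400 bp gave 4, 3 and 1 (of 5). Other causes of these changes were not tested.

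Leaving out each library in turn gave 135 to 199 site calls at day 7, 124 to 171 at day 14 and 17 to 112 between them. Window calls were 7 to 9, 4 to 7 and 1 to 4. Spacer differences were -19.4 to -15.8 points at day 7, -17.0 to -13.8 at day 14, 0.318 to 4.01 between them and 0.347 to 2.44 at day 3. Day 3 gave 0 calls in each of these fits. With the label's replicate number as a block, site calls were 175, 170 and 56, against 172, 168 and 54, of which 171, 168 and 51 were shared. Same-numbered libraries did not deviate together (correlation from -0.274 to 0.174 over 27 pairs, and 5 of 15 libraries closest to their own number), so the number was not taken as a pairing. Low depth limits the stretches 2184 to 2230, 2389 to 2497, 2565 to 2661, 2713 to 2781 and 3334 to 3439, where some sites hold fewer than 100 reads in a library.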
